A study of Mus musculus with 2 samples.

Results

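The 9 genes described here encode receptors, channels and a pump that set aldosterone output: the angiotensin receptors Agtr1a and Agtr1b, the potassium channels Kcnk3, Kcnk9 and Kcnj5, the calcium channels Cacna1h and Cacna1d, the calcium pump Atp2b3 and the chloride channel Clcn2. They were chosen by gene symbol, and all 9 were found among the 55536 genes of the deposited tables. Total RNA of the whole adrenal gland was sequenced from 2 female mice of a cross of 5xFAD with CAST, aged 8 to 10 months, with 300 ng of RNA per library. 5xFAD is a transgenic Alzheimer's disease model whose transgenes are driven by a neuronal promoter, and CAST is a strain derived from a wild mouse subspecies. Whether these animals carried the transgenes was not checked. The labels give 1 group, so no treatment, genotype, age or sex was compared. Both samples carry 1 donor identifier, and the biological replicate numbers are the only sign that they were separate animals. They are called mouse 1 and mouse 2 after those numbers. Every test below sets 1 library against the other and measures counting error only.

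Aldosterone is made by the glomerulosa cells at the outer rim of the adrenal cortex. Background potassium channels hold these cells at a strongly negative voltage, and angiotensin II, acting through its receptors and the Gq protein, or a rise in plasma potassium, depolarises them. Calcium then enters through voltage-gated channels and, through calmodulin-dependent kinases, raises transcription of Cyp11b2, the aldosterone synthase gene. Mutations of human KCNJ5, CACNA1D, CACNA1H, ATP2B3 and CLCN2 are known causes of primary aldosteronism, in which aldosterone is made in excess.

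The library of mouse 1 held 36558609 expected counts over genes, and that of mouse 2 held 32192201. An expected count is a model's estimate of the reads that came from a gene, and 3 counts, the limit that a count of 0 allows, correspond to 0.0821 and 0.0932 CPM, that is, counts scaled to the library's total. The adrenal label was checked against marker genes. All 5 glomerulosa markers, 4 of 4 markers of the corticosterone-making zone, the fasciculata, 3 of 3 of the X-zone and 8 of 8 of the medulla's chromaffin cells reached 1 TPM, a level per transcript length, in both mice. None of 4 kidney markers did, and Umod and Slc12a1 were listed at 0. The mix differed between the libraries: summed adipocyte marker TPM was 628.4 in mouse 1 and 1094 in mouse 2, with all 4 markers higher in mouse 2. Summed red blood cell marker TPM was 522.7 and 284.4, with both markers lower in mouse 2. By the ratio of scaled counts and the test introduced below, all 4 fasciculata markers were lower in mouse 2, though by TPM Cyp11b1 and Mc2r were not. By the same test 6 of 8 chromaffin markers were lower and none higher, though by TPM Th was not lower. The glomerulosa markers were mixed, with 2 higher and 2 lower. The part of this mix in the differences below was not tested. In such bulk tissue, fewer cells of a type and less RNA per cell cannot be told apart. Levels below are those of the whole gland and cannot be assigned to glomerulosa cells alone.

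Reads of Agtr1a and Agtr1b can be separated only where their sequences differ, so both ends of their coding sequences are shown first. The printed bases are the reference sequence of mm10 (GENCODE M21), not the CAST allele, and capitals mark the bases at which the receptors differ. Agtr1a lies on the plus strand, at chr13:30380954-30381043 and chr13:30381941-30382030, and Agtr1b on the minus strand, at chr3:20316351-20316440 and chr3:20315364-20315453. Each coding sequence lies in 1 exon.
Agtr1a, coding bases 1 to 90: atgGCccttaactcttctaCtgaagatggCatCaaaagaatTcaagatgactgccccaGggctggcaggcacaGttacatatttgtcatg
Agtr1b, coding bases 1 to 90: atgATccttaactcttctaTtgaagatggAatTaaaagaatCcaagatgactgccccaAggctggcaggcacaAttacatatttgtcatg
Agtr1a, coding bases 988 to 1077: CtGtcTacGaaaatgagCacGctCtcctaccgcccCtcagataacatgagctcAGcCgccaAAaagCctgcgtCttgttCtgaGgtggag
Agtr1b, coding bases 988 to 1077: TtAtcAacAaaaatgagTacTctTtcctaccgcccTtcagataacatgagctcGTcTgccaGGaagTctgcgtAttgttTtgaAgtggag
The receptors differed at 8 of the first 90 bases and 17 of the last 90. Over all 1077 coding bases 99 differed, an identity of 90.8%, and 337 of 359 codons encoded the same amino acid. The longest identical coding run was 66 bases. No stretch of 101 bases, the read length implied by the tables' effective lengths, was shared between the leading transcripts (0 of 2099).

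The potassium channels share the selectivity filter, the short stretch that lets potassium pass and holds sodium back. Two-pore channels such as Kcnk3 and Kcnk9 carry a pair of pore loops per subunit, and inward rectifiers such as Kcnj5 carry a single loop. Capitals mark the codons of glycine-tyrosine-glycine or glycine-phenylalanine-glycine in these reference stretches of 45 coding bases, shown because all 3 genes share this element.
Kcnk3, first loop, from codon 95: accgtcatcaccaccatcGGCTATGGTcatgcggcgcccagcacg
Kcnk9, first loop, from codon 95: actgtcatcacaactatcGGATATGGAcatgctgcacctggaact
Kcnk3, second loop, from codon 201: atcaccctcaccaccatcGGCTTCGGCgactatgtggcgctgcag
Kcnk9, second loop, from codon 201: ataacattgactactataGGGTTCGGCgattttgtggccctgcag
Kcnj5, single loop, from codon 151: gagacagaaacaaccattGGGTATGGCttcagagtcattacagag
The codon numbers are those of the capitals' first codon. The filter began at the same codons in Kcnk3 and Kcnk9. Their aligned coding sequences were 67.8% identical, against 90.8% for the receptors, and 211 of 402 codons compared encoded the same amino acid.

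The 9 genes spanned a wide range of levels, with Kcnk3 at the top and Kcnj5 at the bottom in both mice. The order by mean TPM was Kcnk3, Agtr1a, Cacna1h, Atp2b3, Kcnk9, Clcn2, Cacna1d, Agtr1b and Kcnj5. No neighbours in that order had overlapping values between the mice, and the second deposited table, made from the reads and a transcript index, gave the same order in each mouse. Among neighbours, only Kcnk9 and Clcn2 had quantifier intervals that overlapped in the gene table. Their TPM summed to 642.4 and 716.0, of which Kcnk3 held 73.2% and 74.6%. At 1 TPM or more in both mice stood 8 of the 9 genes, against 23.7% of all genes and 54.1% of nuclear protein-coding genes.

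**Figure D1:**
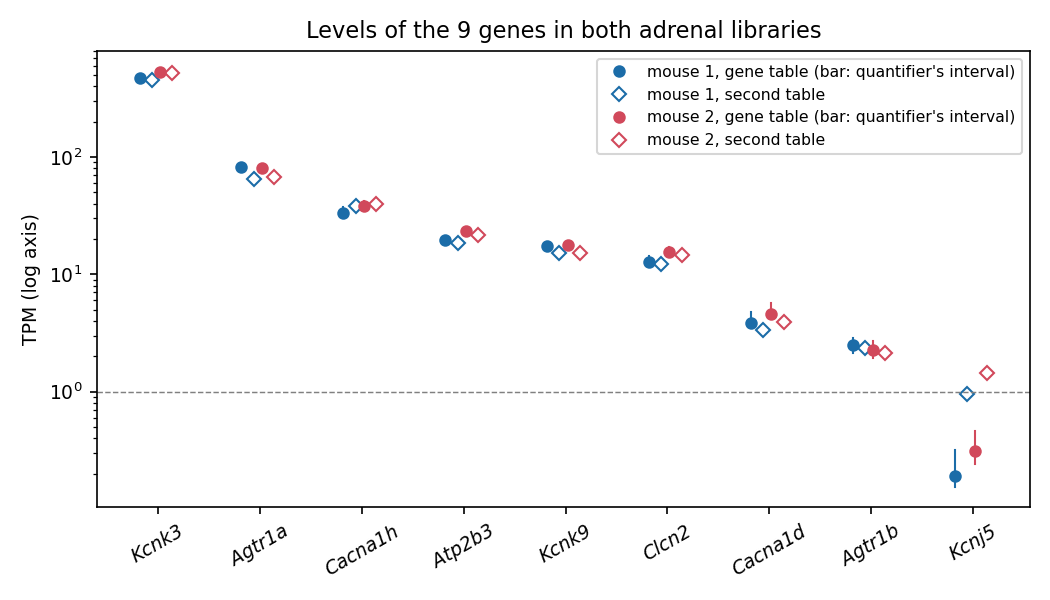
Levels of the 9 genes in TPM on a log axis, for mouse 1 (blue) and mouse 2 (red), from the gene table (filled, with the quantifier's interval of its posterior estimate) and from the second transcript table (open). Kcnk3 stands highest in both mice, and Kcnj5 was the only gene whose tables disagreed by several-fold.

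Between the mice the genes differed little. None of the 9 was 2-fold apart, against 2.96% of the 17666 genes tested. With a mean of at least 100 counts, 65 of 12481 genes were. For so few genes, a count of 0 is near these shares. By the exact binomial test with Benjamini-Hochberg adjustment, 4 of 9 lay beyond counting noise, against 21.3% of all genes tested. Of these, 1 was higher in mouse 2 (10.4% of all genes) and 3 were lower (11.0% of all genes). Deeply counted genes pass this test at small differences. The 4 genes were all among the 6 whose mean count was 1000 or more, and of all such genes 37.1% passed. The median absolute log2 ratio was 0.11 for the 9 genes, 0.13 for all genes tested and 0.08 for genes with at least 1000 counts. Ratios below are of mouse 2 to mouse 1, on counts scaled by the trimmed mean of M-values (TMM). TPM is scaled over all RNA, and nuclear protein-coding genes held 29.6% of it in mouse 1 and 32.5% in mouse 2, so a gene can be higher in mouse 2 by TPM and lower by the scaled count ratio.

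**Figure D2:**
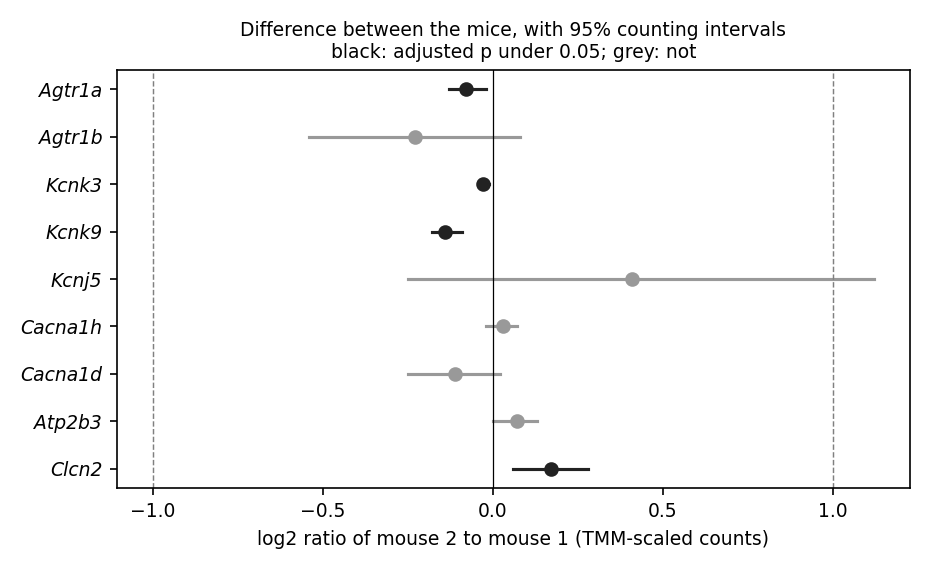
The log2 ratio of mouse 2 to mouse 1 for each gene, from TMM-scaled counts, with exact 95% counting intervals, and dashed lines at 2-fold. Black marks the 4 genes beyond counting noise, and every point lies inside the 2-fold lines.

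Agtr1a, a type 1 angiotensin II receptor, had the highest level of the receptors. Mouse 1 had 82.21 TPM and mouse 2 had 80.87 TPM (81.5 ± 0.948, SD, n = 2), rank 616 of 22015 nuclear protein-coding genes. Its expected counts were 5735 and 4949. The log2 ratio was -0.08 (counting interval -0.13 to -0.02, exact binomial test with Benjamini-Hochberg adjustment, adjusted p = 0.0286), a small difference that no longer passed under total count scaling or in the second table.

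Agtr1b, the second type 1 receptor of rodents, stood at 2.48 and 2.27 TPM (2.38 ± 0.148, SD, n = 2), from 197 and 153 counts. Its log2 ratio of -0.23 had a counting interval from -0.54 to 0.08, which includes 0 (exact binomial test, adjusted p = 0.335). Agtr1a made up 97.1% of the receptor pair's TPM in mouse 1 and 97.3% in mouse 2, 33.1-fold and 35.6-fold the level of Agtr1b. The second table gave 96.5% and 96.9%. The tables' posterior SD of each receptor's count was 0.17 counts in both mice, small beside the counts themselves.

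Among the 5 angiotensin receptor and receptor-associated genes listed, Agtr1a ranked first with 64.4% of the TPM and Agtr1b ranked 4. Agtrap, which promotes internalisation of the type 1 receptor, came next at 34.82 and 39.13 TPM. Agtr2, the type 2 receptor, followed at 5.81 and 5.62 TPM. Its scaled count ratio was higher in mouse 2 (log2 ratio 0.31, exact binomial test, adjusted p = 0.0337), though its TPM was not. The second table gave Agtr2 lower levels, 3.53 and 3.72 TPM. The cause of these differences was not tested.

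Kcnk3, also called TASK-1, is an acid-sensitive background potassium channel. Mouse 1 had 470.37 TPM and mouse 2 had 533.83 TPM (502.1 ± 44.9, SD, n = 2), from 69599 and 62290 counts, and ranked 35 of 22015 nuclear protein-coding genes. Its TPM was higher in mouse 2, yet its scaled count ratio lay just below 0, at a log2 of -0.03 (counting interval -0.04 to -0.01, exact binomial test, adjusted p = 0.00969). Total count scaling turned that ratio to 0.02, so the direction depended on the scaling.

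Kcnk9, also called TASK-3, forms channels alone or together with Kcnk3. It stood at 17.34 and 17.79 TPM (17.6 ± 0.318, SD, n = 2), from 8613 and 7134 counts. Its log2 ratio was -0.14 (counting interval -0.18 to -0.09, exact binomial test, adjusted p = 6.33e-08), the smallest adjusted p of the 9 genes and still a small difference. Kcnk3 made up 96.4% and 96.8% of the pair's TPM. Within the 14 two-pore channel genes, Kcnk3 held 93.9% of the TPM and Kcnk9 ranked second with 3.29%. Only 4 of the 14 reached 1 TPM in both mice, and Kcnk2 came after Kcnk9, at 6.71 and 7.30 TPM.

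Kcnj5 encodes an inward rectifier, also called GIRK4, and is the gene most often mutated in human aldosterone-producing adenomas. It was the lowest of the 9, with 0.19 TPM and 0.31 TPM (0.250 ± 0.0849, SD, n = 2), from 35 and 43 counts. Its log2 ratio of 0.41 had the widest interval of the 9, from -0.25 to 1.12 (exact binomial test, adjusted p = 0.421). That interval includes both 0 and a 2-fold difference.

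The tables did not give the same level for Kcnj5. The second table put it at 0.946 and 1.44 TPM, 4.78-fold the mean of the gene table, from 132 and 167 estimated counts. There its log2 ratio was 0.47 and passed the test. Most of the added signal lay on Kcnj5-203, which held 80 and 95 estimated counts in the second table and 0 in the first. The cause was not tested. By either table Kcnj5 was the lowest of the 9 genes. In the gene table it ranked 8 of 15 inward rectifier genes. In the second table only Kcnj8 and Kcnj2 stood above it. By mean TPM of the gene table Kcnj8 led that family at 3.15 and 3.11 TPM, and the range of Kcnj2, at 1.81 and 3.25 TPM, overlapped it. Kcnj2 was the only one of 9 tested that passed (log2 ratio 0.67, exact binomial test, adjusted p = 2.68e-11).

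Cacna1h encodes the pore of a T-type calcium channel, which opens at voltages near rest. It stood at 33.54 and 37.79 TPM (35.7 ± 3.01, SD, n = 2), from 8362 and 7775 counts. The log2 ratio of 0.03 (counting interval -0.02 to 0.07) did not pass the test (exact binomial test, adjusted p = 0.397). Cacna1h ranked 1712 of the nuclear protein-coding genes.

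Cacna1d encodes the pore of an L-type channel that opens at lower voltages than most of its class. It stood at 3.87 and 4.56 TPM (4.21 ± 0.488, SD, n = 2), from 1013 and 853 counts, with a log2 ratio of -0.11 (counting interval -0.25 to 0.02, exact binomial test, adjusted p = 0.239). Cacna1h made up 89.7% and 89.2% of the pair's TPM. Among all 10 pore genes of voltage-gated calcium channels, Cacna1h held 45.2% of the TPM and Cacna1c, the cardiac and smooth muscle L-type pore, held 44.1%. Cacna1c stood at 33.27 and 36.24 TPM, and its range overlapped that of Cacna1h, so these pores did not differ beyond their spread. None of the 9 pore genes tested passed the test.

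The pores work with auxiliary subunits, of which 6 of 8 reached 1 TPM in both mice. Cacna2d1 led at 32.69 and 40.76 TPM and was higher in mouse 2 (log2 ratio 0.16, exact binomial test, adjusted p = 3.17e-09). Cacnb2 followed at 18.57 and 18.76 TPM and was lower by the scaled count ratio (log2 ratio -0.12, adjusted p = 0.0387), and Cacnb3 stood at 4.00 and 4.94 TPM.

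Atp2b3 encodes a plasma membrane calcium pump, which returns calcium to the outside of the cell. It stood at 19.66 and 23.17 TPM (21.4 ± 2.48, SD, n = 2), from 3596 and 3428 counts. The log2 ratio was 0.07 (exact binomial test, adjusted p = 0.174) in the gene table and 0.08 in the second table, where it passed. Atp2b3 held 44.3% of the TPM of its family and ranked first of 4. Atp2b1 stood at 13.78 and 14.20 TPM and Atp2b4 at 9.21 and 11.76 TPM, and Atp2b4 was the only family member past the test (log2 ratio 0.23, adjusted p = 4.02e-06).

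Clcn2 encodes a chloride channel that opens at negative voltages and lets chloride leave the cell. It stood at 12.78 and 15.39 TPM (14.1 ± 1.85, SD, n = 2), from 1355 and 1390 counts. It was the only one of the 9 genes called higher in mouse 2, with a log2 ratio of 0.17 (counting interval 0.06 to 0.28, exact binomial test, adjusted p = 0.0129). By mean TPM of the gene table Clcn2 ranked 4 of 9 in its family. It came behind Clcn4 at 23.50 and 23.47 TPM, Clcn3 at 14.62 and 16.82 TPM and Clcn7 at 13.62 and 14.83 TPM. The means of Clcn7 and Clcn2 did not differ beyond their spread, and the range of Clcn3 also overlapped that of Clcn2. In the second table Clcn2, at 12.1 and 14.6 TPM, stood above Clcn7, at 11.8 and 12.3 TPM. Clcn2 overlaps Fam131a and Polr2h on the opposite strand, and Polr2h stood at 15.84 and 17.32 TPM. The library kit marks strand, but the strand setting of the counting is not given in the sources used here, so reads of these overlaps may be shared.

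**Figure D3:**
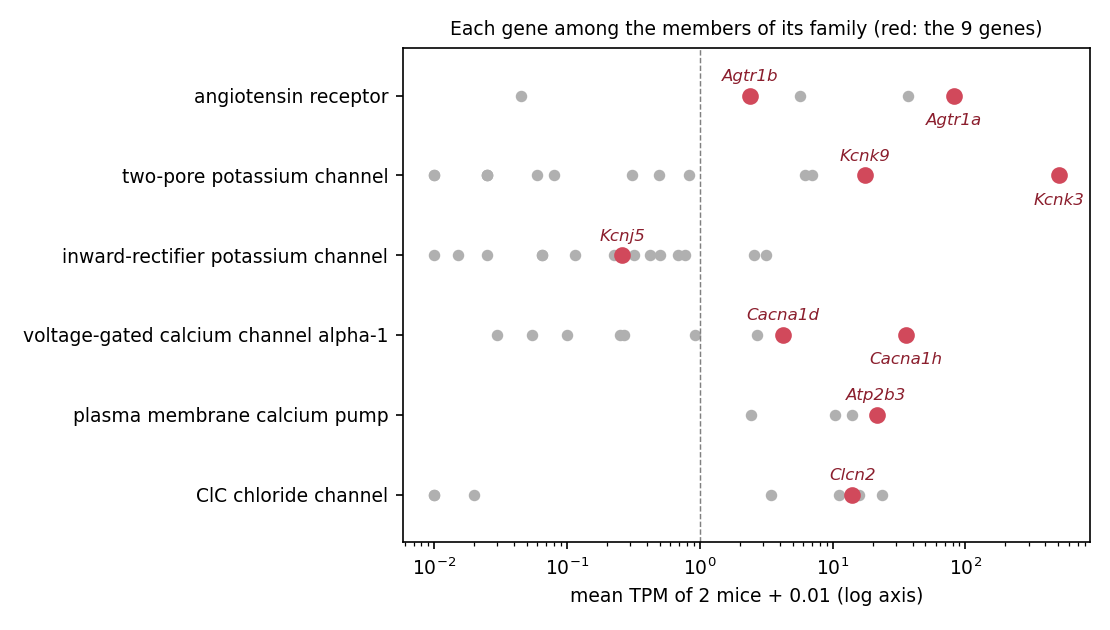
Mean TPM of 2 mice plus 0.01, on a log axis, for every gene of each family, with the 9 genes in red and a dashed line at 1 TPM. Kcnk3 stands apart from its family, Kcnj5 sits in the middle of the inward rectifiers in this table, and Clcn2 sits among 3 others of like level.

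Transcripts were simple for most of the genes. Kcnk9 has 1 annotated transcript. Kcnk3-201 held 97.67% and 95.14% of the gene's TPM, and Atp2b3-203 held 93.90% and 90.76%. Agtr1a-201 held 77.88% and 86.43% of the TPM but 95.4% and 97.4% of the counts, since the other Agtr1a transcripts are short. Agtr1b-201 held 81.82% in mouse 1 and all of the TPM in mouse 2, and Kcnj5-201 held 92.47% and 79.99%, on few counts. In the second table Kcnj5-201 held only 16.2% and 17.6%, and Kcnj5-203 led at 72.6% and 69.1%.

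Cacna1h, Cacna1d and Clcn2 gave part of their TPM to transcripts annotated as retaining an intron, which carry no annotated reading frame. This share was 20.8% and 22.4% for Cacna1h, 27.2% and 42.2% for Cacna1d, and 31.1% and 30.7% for Clcn2. The second table gave lower shares for Cacna1d, 15.7% and 28.6%. Over 7122 nuclear protein-coding genes with such a transcript the median was 9.34% in both mice, with an upper quartile of 20.8% and 20.7%. By counts the share of Cacna1h was only 2.50% and 2.92%, because those transcripts are short. For Clcn2 it was 20.2% and 23.0% of the counts. The share of Cacna1d differed most between the mice, on 14.0% and 21.2% of its counts. Total RNA can hold unspliced transcripts, and their part here was not tested.

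**Figure D4:**
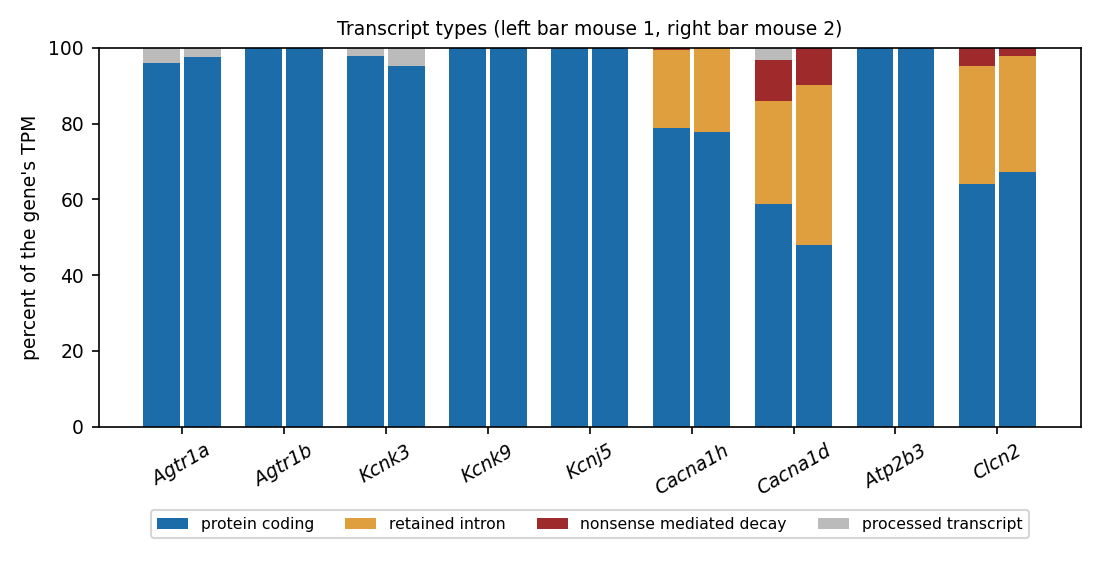
Percent of each gene's TPM by annotated transcript type in the first table, with mouse 1 on the left and mouse 2 on the right of each pair. Retained-intron transcripts (orange) take visible shares in Cacna1h, Cacna1d and Clcn2.

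The leading transcript depended on the table for Cacna1h as it did for Kcnj5. Cacna1h-205 held 72.87% and 74.01% of the TPM in the first table and 22.8% and 23.3% in the second. Cacna1h-201 was at 0 in the first table and led the second, at 34.0% and 38.8%. Transcripts of Cacna1h annotated as protein-coding held 78.7% and 77.7% in the first table and 57.9% and 63.5% in the second. The leading transcript of Clcn2, Clcn2-201, held 64.00% and 67.14%, and 58.7% and 61.0% in the second table.

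Cacna1d had no dominant transcript. Cacna1d-202 held 22.75% and 22.22% of the TPM, Cacna1d-204 held 21.86% and 23.07%, and Cacna1d-209 held 14.08% in mouse 1 and 0 in mouse 2. In the second table Cacna1d-204 led at 29.5% and 34.0%, and Cacna1d-202 held 21.9% and 15.4%. Transcripts of the gene were grouped by 2 starts, a distal and a proximal. Those near the distal start held 24.1% and 27.2% of the TPM, and those near the proximal start 46.8% and 35.6%. In the second table the shares were 23.7% and 20.9% against 62.4% and 56.0%, so the proximal start held more than the distal in both tables and both mice. The rest of the TPM lay on transcripts that begin near neither start. Among these, Cacna1d-212 held 11.36% and 17.87% in the first table and Cacna1d-211 held 5.48% and 12.8%. The distal start lies within Dcp1a, a gene on the opposite strand at 6.89 and 8.22 TPM, and reads may be shared there as well.

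The 250 bases before 2 Cacna1d starts are shown because transcripts that begin near both were counted. They come from RefSeq (GRCm38.p6), on the minus strand, at chr14:30491157-30491406 for the distal and chr14:30353487-30353736 for the proximal start, and capitals mark each CG.
Cacna1d, distal: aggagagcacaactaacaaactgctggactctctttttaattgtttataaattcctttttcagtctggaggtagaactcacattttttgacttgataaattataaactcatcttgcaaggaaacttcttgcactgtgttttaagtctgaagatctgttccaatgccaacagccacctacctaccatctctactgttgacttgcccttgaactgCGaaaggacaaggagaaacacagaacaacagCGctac
Cacna1d, proximal: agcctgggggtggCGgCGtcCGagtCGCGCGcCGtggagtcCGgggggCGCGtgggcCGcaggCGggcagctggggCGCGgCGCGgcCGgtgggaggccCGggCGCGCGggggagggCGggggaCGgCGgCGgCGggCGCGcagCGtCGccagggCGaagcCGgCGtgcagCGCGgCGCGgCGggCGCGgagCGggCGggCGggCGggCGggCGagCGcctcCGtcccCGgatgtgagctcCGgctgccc
The distal stretch was 39.6% G or C with 2 CG, and the proximal stretch was 86.4% G or C with 50 CG. The distal stretch adjoins the start of Cacna1d-202. The proximal stretch adjoins that of Cacna1d-208, which held 10.83% and 9.95% of the gene's TPM. Cacna1d-204 and Cacna1d-209 begin further along, at base 30352991, so the proximal stretch does not adjoin their starts. The median of 32851 such stretches in the RefSeq table was 52.4% with 6 CG. The table matched 4 of the 9 genes, Agtr1b, Kcnj5, Cacna1d and Clcn2, in 5 stretches. The Clcn2 stretch precedes base 20716636 of chromosome 16, while the leading transcript, Clcn2-201, begins at base 20716117. That stretch therefore does not adjoin the start of Clcn2-201. The motif TATAAA, searched on both strands, was in 2 of the 5, those of Agtr1b and the distal start of Cacna1d, and in 12.4% of all stretches. TGACGTCA, a cyclic AMP response element, and CAAGGTCA, a site type bound by nuclear receptors such as steroidogenic factor 1, were in 0 of the 5, and in 1.55% and 1.33% of all stretches. At shares this low, 0 of 5 says little about these genes.

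The genes through which these receptors and channels act were present as well. Their levels too are those of the whole gland and cannot be assigned to glomerulosa cells. Of 15 genes of Gq and phospholipase C signalling, 14 reached 1 TPM in both mice. By the exact binomial test, 5 of the 15 were lower in mouse 2 and none was higher, against 11.0% lower and 10.4% higher of all genes and 37.1% called in either direction of genes with 1000 counts or more. The list had a median log2 ratio of -0.03 beside -0.001 for all genes tested. Rgs2, which speeds the switching off of Gq, had the highest mean TPM of the list, at 119.83 and 64.18 TPM, with a log2 ratio of -0.98. Itpr1, a receptor that releases stored calcium, stood at 63.27 and 65.13 TPM, and Prkcd, a protein kinase C, at 61.14 and 63.15 TPM. Both were lower in mouse 2 by the scaled count ratio, at -0.13 and -0.21, though not by TPM. Rgs2 stood first in mouse 1 but below Itpr1 in mouse 2. In the second table Rgs2 had 72.5 and 42.5 TPM, beside 60.4 and 64.6 for Prkcd and 58.2 and 59.2 for Itpr1.

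Of 19 genes of calmodulin and CaM kinase signalling, 16 reached 1 TPM in both mice. Among the 18 tested, 5 were lower and 1 was higher in mouse 2, beside those same shares of all genes (11.0% and 10.4%) and of deeply counted genes (37.1% in either direction), with a median log2 ratio of -0.06. Nr4a1, an early-response transcription factor induced by angiotensin II, stood at 256.84 and 158.44 TPM (log2 ratio -0.82). Its relative Nr4a2 stood at 8.52 and 5.29 TPM (log2 ratio -0.70), and both passed the test. Calm2, which encodes calmodulin, stood at 156.61 and 172.97 TPM.

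All 10 genes of the list for the sodium pump and other ion transport reached 1 TPM, with 3 higher and 2 lower in mouse 2, again beside 10.4% and 11.0% of all genes and 37.1% of deeply counted genes in either direction. Atp2a2, which returns calcium to internal stores, stood at 59.23 and 68.57 TPM (log2 ratio 0.05), and Atp1b3, a sodium pump beta subunit, at 49.74 and 56.04 TPM (log2 ratio 0.01). Of 6 other genes known to be mutated in primary aldosteronism, all reached 1 TPM, with 2 higher and 1 lower in mouse 2. They include Ctnnb1, the beta-catenin gene, at 249.17 and 288.50 TPM (log2 ratio 0.06) and Gna11, a Gq-class G protein gene, at 26.55 and 27.90 TPM (log2 ratio -0.15). Cyp11b2 itself, the end point of the pathway, stood at 183.34 and 160.99 TPM in the gene table and at 430.0 and 400.3 TPM in the second. Its log2 ratio in the gene table was -0.36 (exact binomial test, adjusted p = 3.21e-65). The other glomerulosa markers were mixed. By the same exact binomial test Vsnl1 was lower too (log2 ratio -0.20, adjusted p = 0.0113). Hsd3b6 was higher (log2 ratio 0.36, adjusted p = 3.51e-09), as was Dab2 (log2 ratio 0.09, adjusted p = 5.89e-07). Wnt4 did not pass (log2 ratio 0.06, adjusted p = 0.116), and the list's median was 0.06.

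**Figure D5:**
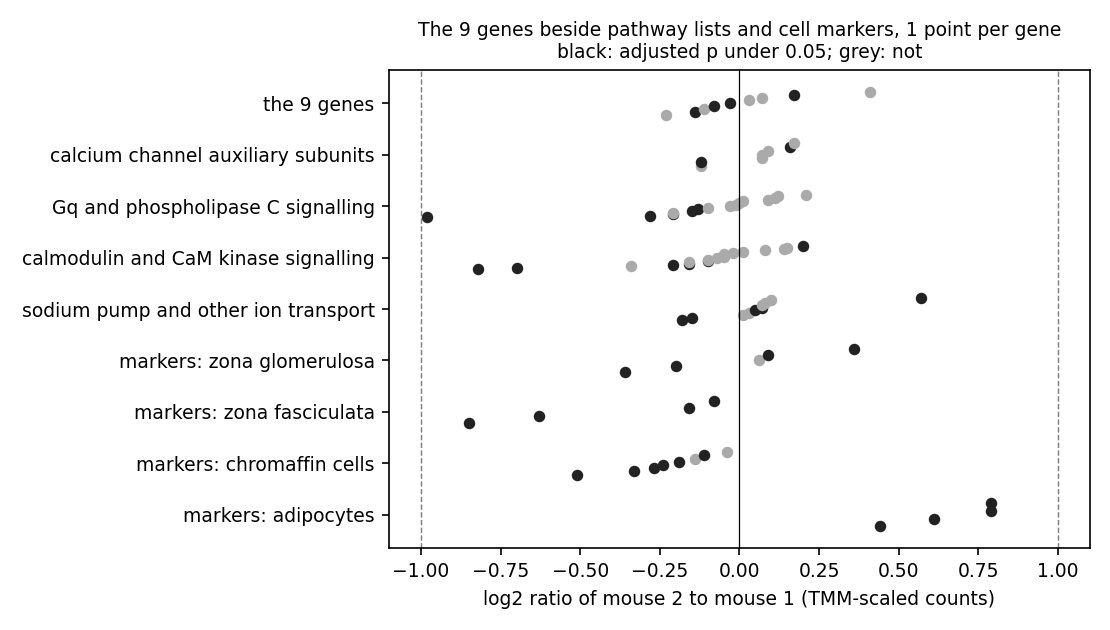
The log2 ratio of mouse 2 to mouse 1 for each tested gene of the 9 and of pathway and marker lists, 1 point per gene, black where beyond counting noise. The 9 genes lie between -0.23 and 0.41, while Rgs2 reaches -0.98 and the 4 adipocyte markers lie from 0.44 to 0.79.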

How the data were processed

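Total RNA of 2 adrenal libraries was analysed from the deposited tables. Per the file headers, the gene tables hold the authors' expected counts, TPM and FPKM, and the transcript tables state what percent of its gene each transcript forms. The deposited quantifier intervals, posterior means and posterior SDs, treated here as scores, belong to the same tables. A second deposited table holds estimated counts and TPM per transcript. Per the labels and the deposited text files, mm10 and annotation M21 were used. Neither the aligner nor the quantifiers are named (not given in the sources used here). Expected counts divide reads between like genes by a model, and CAST reads met a reference made from a different strain.

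Every gene identifier had a match in M21. Rows naming no gene (0.503% and 0.527% of counts) were left out. Expected counts were scaled with edgeR 4.0.16 (TMM, factors from genes whose mean count was 10 or more) in R 4.3.3. They were rounded only for the binomial test, the intervals and the DESeq2 size factors. Each of 17666 genes was tested against counting noise by a two-sided exact binomial test (scipy 1.17.1), with Benjamini-Hochberg adjustment over all of them at 0.05. Log2 ratios used a prior count of 2, and intervals were 95% Clopper-Pearson. Reads carried no molecular identifiers and are not independent molecules, so intervals and limits cover counting error only. The test was tested on simulated data that held only counting noise and set differences. Such data cannot show how the test behaves under variation between animals. Alternatives used DESeq2 1.42.0 size factors, total counts, ERCC counts and the second table, among others. Sequences came from the GENCODE M21 transcripts and RefSeq.

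The members and lists were chosen with earlier results of these data known. In each family and pathway list the 3 genes of highest mean TPM were named, with those past the test and at least 1.5-fold apart, while marker lists are given mainly as counts. Some genes under this rule are not reported here. TMM factors were first computed from all genes and were changed to genes with at least 10 counts after the first results had been seen. Also chosen after seeing the data were the comparison with genes of 1000 counts or more, the retained-intron shares, the start groups of Cacna1d, the channel pair shares, the printed sequences and the motifs.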

Additional observations from a re-analysis of the deposited data

How the results depend on the processing

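The number of the 9 genes beyond counting noise was 4 or 5 under every scaling, filter and table tried, and none was 2-fold apart under any. The 4 named genes were the same with DESeq2 size factors, ERCC scaling, nuclear protein-coding genes alone, no count filter, a minimum mean of 100 counts, and TMM factors from all genes, the last an alternative recorded after seeing the data, having been the first scaling run. With total counts, under which the all-gene median was 0.047, the log2 ratio of Kcnk3 reversed to 0.02, Agtr1a (-0.03) no longer passed, and Cacna1h (0.08) and Atp2b3 (0.11) did. In the second table Agtr1a (-0.06) and Kcnk3 (-0.01) no longer passed, and Kcnj5 (0.47) and Atp2b3 (0.08) did. The cause was not tested. The Agtr1a share of the receptor pair was 97.2%, moved to 96.7% in the second table, and lay between 97.1% and 97.3% with 1 mouse left out. The count at 1 TPM or more stayed at 8 with either mouse left out and was 6 at 10 TPM. Leading transcript shares moved beyond the spread of the mice for 7 of 9 genes in the second table. No paired analysis was possible because there is 1 group. Agtr1b and Kcnj5 have few counts, which limits what their ratios can show.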
